A study of Mus musculus with 16 samples.

Results

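Transcripts that mark glia, blood vessels and leukocytes were followed in RNA sequencing of hand-sorted YFP+ neurons from the basolateral amygdala (BLA) and the gustatory cortex (GC). The set held 41 genes out of 31469 entries in the deposited tables, taken by gene name from marker lists, and each name was found on a single entry. Of these genes, 7 mark astrocytes, 8 mark myelinating oligodendrocytes, 3 are transcription factors of the oligodendrocyte lineage, 3 mark oligodendrocyte precursors, 12 mark microglia and other leukocytes, and 8 mark endothelial and mural cells. The study asked which transcripts change in neurons after conditioned taste aversion (CTA), in which a mouse learns to avoid a taste that was followed by sickness. All mice were of the YFP-H line (B6.Cg-Tg(Thy1-YFP)HJrs/J), aged 60 to 80 days, and all drank 0.5% saccharin for 30 min. The CTA groups were then given LiCl (0.15 M, 2% of body weight) into the peritoneum and the taste control groups saline. Neurons were sorted 4 hr after training, with 4 libraries for each of the 4 groups (CTA and taste control in BLA and in GC), 16 in all. YFP is driven by the Thy1 promoter in projection neurons, each library is amplified RNA from a pool of sorted cells, and no group was given LiCl without the taste. The labels do not say whether a BLA and a GC library of the same number come from the same mouse, and p-values measure the spread between libraries.

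Astrocytes take up transmitter and buffer water and ions around synapses, oligodendrocytes wrap axons in myelin, and microglia are the resident phagocytes of the brain. Endothelial cells line the capillaries, and pericytes and smooth muscle cells surround them. Some of the RNAs that mark these cells lie far from the nucleus, as in the case of Mbp mRNA, which oligodendrocytes carry out into their myelin-forming processes.

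Levels are given in TPM, in which transcripts are scaled for gene length and to a fixed total per library, so that genes can be compared with each other. Transcripts of projection neurons were abundant in all libraries, and all 9 reference genes averaged at least 30 TPM in each region. The glutamate transporter Slc17a7 averaged 712 ± 56.9 TPM in BLA and 879 ± 70.7 TPM in GC (SD, n = 8), and the release protein Snap25 was between 7098 and 15429.5 TPM. Thy1, whose promoter drives the YFP used for sorting, took 64127 to 89098 TPM in BLA and 26938 to 53946 TPM in GC. Fewer entries were above 0 in BLA (15850 to 17202 per library) than in GC (17982 to 18340), and 0 of 19 housekeeping genes were at 0 in any library. The depth of each library is unknown because TPM keeps no counts, so a TPM of 0 has no known detection limit.

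As a group, glial and vascular transcripts took a small share of each library. Their summed level was 191 to 353 TPM in BLA (median 261) and 262 to 702 TPM in GC (median 356), or 0.0191% to 0.0353% and 0.0262% to 0.0702% of all TPM. In BLA 17 of the 41 averaged at least 1 TPM and 5 at least 10 TPM, compared with 34 and 7 in GC. The median over the 41 means was 0.759 TPM in BLA and 2.19 TPM in GC. In BLA 16 members were at 0 in more than 4 of the 8 libraries, compared with 3 members in GC. The 3 members of at least 30 TPM were S100b, Mbp and Ptprc in BLA, and Mbp, Aldoc and S100b in GC. In these sorted pools, fewer cells of a type and less RNA per cell cannot be told apart. Which cells in a pool the RNA came from was not tested, so a level is not a count of other cells.

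**Figure D1:**
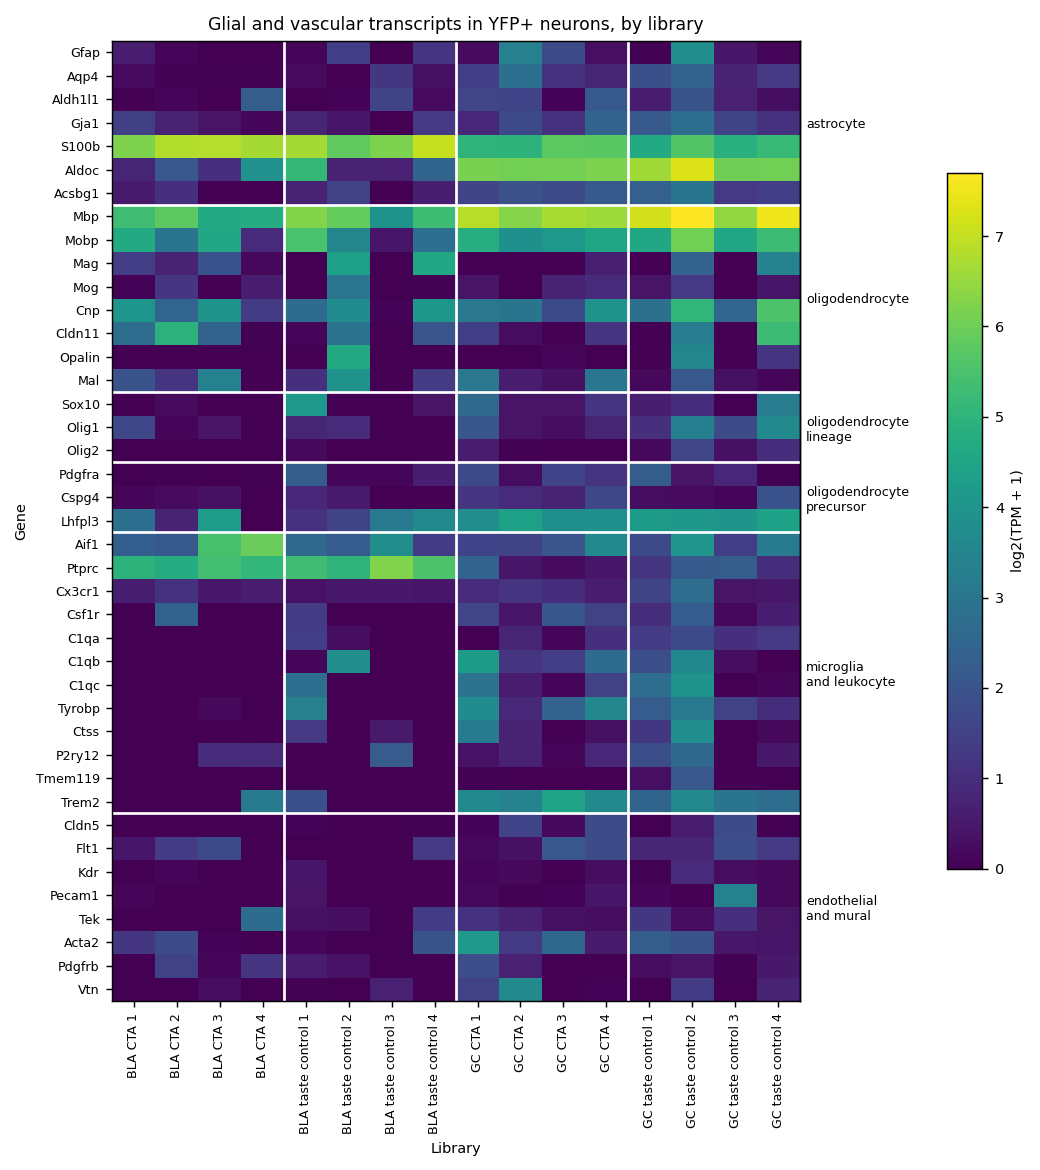
Level of each of the 41 transcripts (rows, grouped by class) in each of the 16 libraries (columns), colored by log2(TPM + 1). S100b and Mbp are bright in all 16 columns, Ptprc is bright only in the 8 BLA columns, Aldoc is bright in all 8 GC columns, and most other rows are dark in BLA, with Tmem119 at 0 in all 8 BLA libraries.

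The largest differences were between regions. BLA and GC were compared with limma on log2(TPM + 1) over all 16 libraries with training as a covariate, and a gene was called at a Benjamini-Hochberg adjusted p under 0.05 over all 15191 genes that averaged 1 TPM or more. Of the 41 members 29 passed this filter and 10 were called, beside 19.7% of all genes tested. Ptprc and S100b were higher in BLA, where 4.24% of all genes were called. Aldoc, Mbp, Trem2, Lhfpl3, Tyrobp, Acsbg1, Aqp4 and Gja1 were lower in BLA, where 15.4% of all genes were called. Of the 29 tested members, 23 had a log2 difference (BLA minus GC) below 0, compared with 68.2% of all genes. The median difference was -0.82 over the 29 members and -0.23 over all genes. Of the 29, 13 had a BLA mean under 1 TPM and none a GC mean under 1 TPM, so that some entered the test only through their GC level. The direction of calls across all genes depended on scaling, with 21.6% of calls higher in BLA for TPM as deposited, 44.1% after median-ratio rescaling and 43.0% after quantile normalization, and the median of all genes moved to -0.04 and 0.02.

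**Figure D2:**
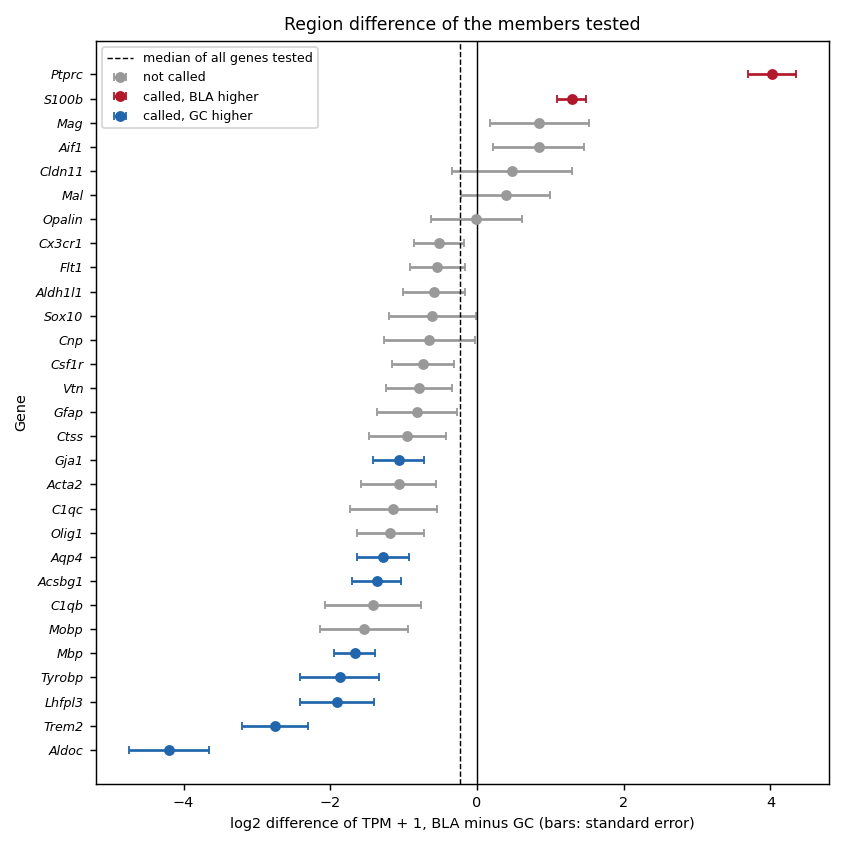
Log2 difference of TPM + 1 (BLA minus GC, x axis) of the 29 members tested (y axis), with standard errors from limma as bars and the median of all genes tested (-0.23) as a dashed line. Ptprc (4.02) and S100b (1.29) were called higher in BLA, and 8 members from Gja1 (-1.07) to Aldoc (-4.20) were called higher in GC.

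The start regions of the 4 members with the smallest adjusted p between regions are shown because 2 of them were higher in BLA and 2 higher in GC. Each is a RefSeq promoter window on GRCm38.p6, from 250 bases before to 50 bases after a start site, written 5′ to 3′ on the strand of the gene. The table of promoters held 31 of the 41 members. Ptprc (chr1:138175256-138175555, minus strand) and Aldoc (chr11:78322823-78323122, plus strand) each had 2 windows, of which the more upstream is shown, and S100b (chr10:76253586-76253885, plus strand) and Trem2 (chr17:48346151-48346450, plus strand) had 1 each. Capitals mark every match on either strand to 4 motifs. These are a longer string that holds the core of ETS factor sites (letters GAGGAA) and the E-box that basic helix-loop-helix factors bind (letters CANNTG). The others are the TATA element of core promoters (letters TATAAA) and the GC box bound by SP1 and its relatives (letters GGGCGG). Shorter forms of ETS sites were not searched. No match overlapped another in these 4 windows.
Ptprc: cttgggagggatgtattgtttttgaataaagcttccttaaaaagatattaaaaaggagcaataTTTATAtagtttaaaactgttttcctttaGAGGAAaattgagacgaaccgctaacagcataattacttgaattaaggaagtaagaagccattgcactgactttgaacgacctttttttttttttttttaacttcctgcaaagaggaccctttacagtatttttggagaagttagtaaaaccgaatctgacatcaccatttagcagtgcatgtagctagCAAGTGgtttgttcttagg
S100b: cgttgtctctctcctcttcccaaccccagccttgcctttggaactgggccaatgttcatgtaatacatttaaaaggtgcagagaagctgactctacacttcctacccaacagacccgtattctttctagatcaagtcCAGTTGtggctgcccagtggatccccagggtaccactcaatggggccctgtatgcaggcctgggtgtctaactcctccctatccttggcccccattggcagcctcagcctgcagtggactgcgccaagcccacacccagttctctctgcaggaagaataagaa
Aldoc: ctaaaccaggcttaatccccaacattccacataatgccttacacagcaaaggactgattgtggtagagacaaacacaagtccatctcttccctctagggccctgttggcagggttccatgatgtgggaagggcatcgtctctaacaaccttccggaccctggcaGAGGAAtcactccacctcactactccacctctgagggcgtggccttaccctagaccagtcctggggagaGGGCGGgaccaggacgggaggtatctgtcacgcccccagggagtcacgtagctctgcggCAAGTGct
Trem2: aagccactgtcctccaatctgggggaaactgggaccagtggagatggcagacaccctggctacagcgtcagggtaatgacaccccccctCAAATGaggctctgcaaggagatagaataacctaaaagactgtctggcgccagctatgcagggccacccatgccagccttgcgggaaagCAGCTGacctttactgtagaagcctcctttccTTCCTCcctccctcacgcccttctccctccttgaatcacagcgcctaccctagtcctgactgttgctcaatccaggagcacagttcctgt
The string GAGGAA was found in the windows of Ptprc, Aldoc and Trem2 and in 28.3% of 32851 promoter windows of this length. The E-box was found in all 4 windows and in 72.3% of all windows. The TATA element was found only in the Ptprc window of the 4 (13.6% of all windows) and the GC box only in that of Aldoc (35.7%).

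Ptprc, which encodes the leukocyte phosphatase CD45 (chromosome 1, 138062861 to 138175708, minus strand), was the member with the smallest adjusted p between regions. In BLA it measured 30.4, 26.4, 41.5 and 33.0 TPM in CTA libraries 1 to 4 and 39.6, 31.3, 74.7 and 46.0 TPM in taste control libraries 1 to 4. In GC it measured 4.34, 0.390, 0.180 and 0.390 TPM after CTA and 1.22, 3.57, 3.85 and 1.0 TPM in the taste control. Every BLA library lay above every GC library. The means were 40.4 ± 15.3 and 1.87 ± 1.75 TPM (SD, n = 8), a 21.6-fold difference (log2 difference 4.02, SE 0.33, limma adjusted p = 4.95e-08). The exact permutation test of mean TPM (two-sided) gave p = 1.55e-04, the smallest that 8 libraries against 8 allow. Ptprc was 1 of 4 members whose regions did not overlap, beside 5.91% of all genes, and the others were S100b, Aldoc and Mbp.

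Most other microglial and leukocyte transcripts were low or at 0 in BLA. Of the 12 genes of this class, 9 were at 0 in at least 5 of the 8 BLA libraries, among them Tmem119, a surface protein of resident microglia, at 0 in all 8. C1qa and C1qb, chains of the complement initiator C1q, were at 0 in 6 BLA libraries each and C1qc in 7, and the protease Ctss was at 0 in 6. The purinergic receptor P2ry12 and the receptor Csf1r were at 0 in 5 BLA libraries each. The chemokine receptor Cx3cr1 was above 0 in all 8 but low, at 0.529 ± 0.279 TPM. Without Ptprc, the other 11 genes of the class summed to 1.97 to 69.6 TPM in BLA and to 12.2 to 92.1 TPM in GC, and the regions overlapped. Without Aif1 as well the other 10 genes of the class summed to 0.410 to 22.9 TPM in BLA and to 9.74 to 77.0 TPM in GC. In GC, 11 of the 12 genes of the class averaged at least 1 TPM.

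Trem2, a lipid-sensing receptor of microglia, and Tyrobp, the adaptor through which it signals, were lower in BLA. Trem2 was at 0 in 6 BLA libraries, with 7.89 TPM in CTA 4 and 2.65 TPM in taste control 1. In GC it measured 11.8, 9.74, 21.8 and 11.5 TPM after CTA and 4.56, 11.4, 6.85 and 5.71 TPM in the taste control. The regions overlapped only through BLA CTA 4. The means were 1.32 ± 2.81 and 10.4 ± 5.40 TPM, 7.92-fold higher in GC (log2 difference -2.76, SE 0.45, limma adjusted p = 1.86e-04), and the exact permutation test gave p = 7.77e-04. Tyrobp was at 0 in 6 BLA libraries, with 0.130 TPM in CTA 3 and 9.19 TPM in taste control 1, while the GC libraries ranged from 0.810 to 12.4 TPM. Its log2 difference was -1.87 (SE 0.54, limma adjusted p = 0.0192), but the exact permutation test of its mean TPM (1.17 against 5.35) gave p = 0.0544. Without BLA taste control 1 and GC taste control 2, the difference in Tyrobp was -2.17 (adjusted p = 0.00194), but the call was lost after quantile normalization (adjusted p = 0.0861), with a pseudocount of 5 TPM (0.0618) and in the taste control alone (0.447).

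Aif1, the actin-binding protein Iba1 of microglia, varied widely and was not called between regions (log2 difference 0.84, limma adjusted p = 0.382). It measured 3.91, 3.39, 42.7 and 60.3 TPM in the 4 BLA CTA libraries and 5.21, 3.73, 12.9 and 1.56 TPM in the BLA taste control, so that CTA 3 and CTA 4 stood above the other 6. In GC it ranged from 1.70 to 15.1 TPM. C1qb had a log2 difference of -1.42 (limma adjusted p = 0.140), and without BLA taste control 2, which held 12.9 TPM of it, the value was -1.93 (adjusted p = 0.0150). In the CTA libraries alone it was -2.38 (adjusted p = 0.0497) and in the taste control libraries alone -0.46 (adjusted p = 0.826).

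Of the 7 astrocyte genes of the set, S100b and Aldoc were the most abundant, and they differed between regions in opposite directions. S100b encodes a calcium-binding protein (chromosome 10, 76253853 to 76261159, plus strand). It measured 73.8, 112, 114 and 101 TPM in BLA CTA libraries 1 to 4 and 99.3, 55.1, 71.7 and 129 TPM in the BLA taste control. In GC it measured 31.5, 30.6, 53.0 and 52.6 TPM after CTA and 25, 47.7, 28.5 and 35.4 TPM in the taste control. The lowest BLA library lay just above the highest GC library. The means were 94.4 ± 25.2 and 38.0 ± 11.3 TPM, 2.48-fold higher in BLA (log2 difference 1.29, SE 0.20, limma adjusted p = 9.79e-05, exact permutation p = 1.55e-04). Its coefficient of variation, 26.7% in BLA and 29.7% in GC, was below that of most members.

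Aldoc encodes aldolase C, a glycolytic enzyme of astrocytes (chromosome 11, 78322968 to 78327781, plus strand). In BLA it measured 0.730, 3.28, 1.06 and 13.8 TPM after CTA and 33.8, 0.670, 0.620 and 4.64 TPM in the taste control. In GC it measured 70.2, 65.6, 67.2 and 72.8 TPM after CTA and 95.7, 156, 64.2 and 65.8 TPM in the taste control. All GC libraries lay above all BLA libraries, of which only CTA 4 and taste control 1 passed 10 TPM. The GC mean, 82.2 ± 31.5 TPM, was 11.2-fold the BLA mean of 7.33 ± 11.6 TPM (log2 difference -4.20, SE 0.54, limma adjusted p = 1.08e-05, exact permutation p = 1.55e-04). Without BLA taste control 1 and GC taste control 2 together, the difference was -4.49 (adjusted p = 1.23e-06).

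The other 5 astrocyte genes were low in both regions, and together they summed to 0.350 to 3.96 TPM in BLA and 4.62 to 33.1 TPM in GC. Acsbg1, an enzyme that activates long fatty acids, averaged 0.576 ± 0.637 TPM in BLA and 3.10 ± 1.81 TPM in GC (log2 difference -1.37, SE 0.33, limma adjusted p = 0.00530). Aqp4, the water channel of astrocytic endfeet, averaged 0.260 ± 0.457 and 2.35 ± 1.94 TPM (log2 difference -1.28, SE 0.35, adjusted p = 0.0120). Gja1, the gap junction protein connexin 43, averaged 0.669 ± 0.623 and 2.65 ± 1.79 TPM (log2 difference -1.07, SE 0.35, adjusted p = 0.0358). These 3 had BLA means under 1 TPM and passed the filter through GC. The calls of Acsbg1 and Aqp4 were lost after quantile normalization (adjusted p = 0.0867 and 0.325) and within the taste control (0.191 and 0.240) or CTA (0.0923 and 0.139) libraries alone. That of Gja1 was lost after both rescalings (adjusted p = 0.0605 and 0.498) and in 8 of the 16 fits that left out a library (BLA CTA 3 or 4, BLA taste control 2 or 3, GC CTA 2 or 4, GC taste control 1 or 2), with an adjusted p of up to 0.0790. Gfap, the filament protein of reactive astrocytes, was at most 1.72 TPM in BLA, and in GC it was at most 2.29 TPM except in CTA 2 (9.28 TPM) and taste control 2 (12.9 TPM). The folate enzyme Aldh1l1 averaged 0.770 TPM in BLA and 1.47 TPM in GC, and neither gene was called (limma adjusted p = 0.325 and 0.372).

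**Figure D3:**
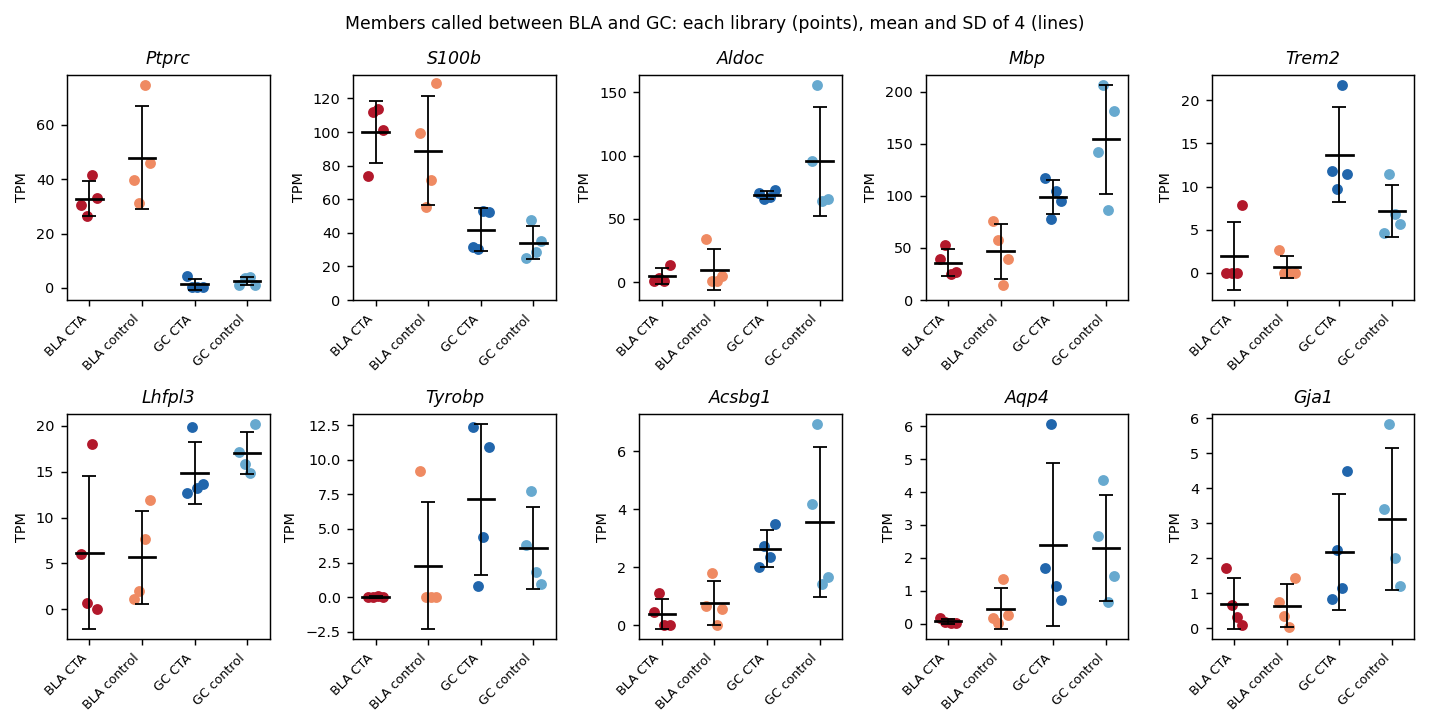
TPM (y axis, each panel on its own scale) of the 10 members called between regions, with 1 point per library in the 4 groups, the group mean as a horizontal line and the SD of 4 libraries as bars. In the panels of Ptprc, S100b, Aldoc and Mbp the BLA and GC points do not overlap, and in the other panels they do.

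Myelin transcripts were led by Mbp, myelin basic protein (chromosome 18, 82475146 to 82585637, plus strand). In BLA it measured 39.6, 52.8, 24.7 and 26.5 TPM after CTA and 76.1, 57.8, 14.2 and 39.0 TPM in the taste control. In GC it measured 117, 78.2, 105 and 95.1 TPM after CTA and 142, 207, 86.8 and 182 TPM in the taste control. The highest BLA library (76.1 TPM) lay just under the lowest GC library (78.2 TPM). The GC mean of 127 ± 46.8 TPM was 3.06-fold the BLA mean of 41.3 ± 20.2 TPM (log2 difference -1.67, SE 0.28, limma adjusted p = 2.19e-04, exact permutation p = 1.55e-04).

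No other oligodendrocyte gene was called between regions, and over the 7 tested the median log2 difference was -0.01, which turned to 0.02 and 0.12 after the 2 rescalings. Mobp, a further protein of compact myelin, measured 25.1, 6.85, 23.1 and 0.900 TPM in BLA CTA and 43.6, 10.6, 0.350 and 6.07 TPM in the BLA taste control. In GC it measured 26.6, 13.5, 16.3 and 22.1 TPM after CTA and 23.3, 65.9, 22.1 and 37.6 TPM in the taste control. Its log2 difference was -1.54 (SE 0.60, limma adjusted p = 0.0817), and the call depended on the library left out, with an adjusted p of 0.0425, 0.0481 and 0.0277 without BLA CTA 1, BLA CTA 3 and BLA taste control 1. Cnp, an enzyme of the myelin sheath, averaged 8.74 ± 6.5 TPM in BLA and 15 ± 15.6 TPM in GC.

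The remaining myelin genes were concentrated in a few libraries. Opalin, a membrane protein of mature oligodendrocytes, was at 0 in 7 BLA libraries and at 25.2 TPM in taste control 2, and in GC it passed 1 TPM only in taste control 2 (10.5 TPM) and taste control 4 (1.22 TPM). Mag, a glycoprotein that faces the axon, was at 19.8 and 23.8 TPM in BLA taste controls 2 and 4 and at most 2.81 TPM in the other BLA libraries, and in GC it passed 1 TPM only in the same-numbered taste controls (4.31 and 9.62 TPM). Cldn11, the tight junction protein of myelin, was highest in BLA CTA 2 (29.9 TPM) and GC taste control 4 (37.8 TPM). Mog, a surface protein of the sheath, peaked at 7.06 TPM in BLA taste control 2 and averaged 0.501 TPM in GC. Mal, a membrane proteolipid, ranged from 0 to 14.1 TPM in BLA and from 0.0700 to 7.33 TPM in GC. For each of these 5 genes the SD was larger than the mean in BLA, and for each but Mog also in GC.

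Transcription factors and precursor markers of the oligodendrocyte lineage were low apart from Lhfpl3. Olig2 averaged 0.0175 TPM in BLA, where it was at 0 in 7 libraries, and 0.508 TPM in GC. Sox10 was at 0 in 5 BLA libraries and at 16.2 TPM in taste control 1. Olig1 averaged 0.530 ± 0.752 TPM in BLA and 3.62 ± 4.43 TPM in GC (log2 difference -1.18, SE 0.46, limma adjusted p = 0.0809), and without BLA CTA 1 the adjusted p was 0.0306. The receptor Pdgfra and the proteoglycan Cspg4, which define precursors, averaged 0.576 and 0.234 TPM in BLA and 1.33 and 1.04 TPM in GC, and neither passed the filter between regions.

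Lhfpl3, a membrane protein transcript enriched in precursors, was in contrast detected evenly in GC, at 12.7, 19.9, 13.2 and 13.7 TPM after CTA and 17.2, 15.8, 14.9 and 20.2 TPM in the taste control. In BLA it measured 6.03, 0.660, 18.0 and 0 TPM after CTA and 1.14, 1.97, 7.68 and 11.9 TPM in the taste control, so that the regions overlapped only through BLA CTA 3. It was lower in BLA (5.92 ± 6.39 against 15.9 ± 2.91 TPM, log2 difference -1.91, SE 0.50, limma adjusted p = 0.0104, exact permutation p = 0.00249), and with 4 libraries a region the adjusted p was 0.0760 in the taste control and 0.164 after CTA. Its exons share 567 bases with A930003O13Rik on the opposite strand, and those of Olig1 share 157 bases with Gm15966 on the opposite strand. Further members overlap protein-coding genes on the opposite strand, Csf1r by 873 bases (Hmgxb3) and Cnp by 154 bases (Dnajc7). Pdgfra and Aldh1l1 share 652 and 604 bases with other genes, and Mobp, Cx3cr1 and P2ry12 share fewer. The sources do not state whether reads were counted by strand.

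Endothelial and mural transcripts were scarce in BLA, where none of the 8 averaged 1 TPM and their sum was 0.510 to 6.91 TPM. In GC the sum was 3.47 to 22.3 TPM, 4 of the 8 averaged at least 1 TPM, and none of the 3 that could be tested was called. The tight junction protein Cldn5 was at 0 in 6 BLA libraries and at most 0.05 TPM in the others, and in GC it reached 2.49 TPM. Of the receptors for vascular growth factors, Flt1 averaged 0.711 TPM in BLA and 1.45 TPM in GC, Kdr 0.0600 and 0.208 TPM, and Tek 0.959 and 0.660 TPM. The adhesion molecule Pecam1 was under 0.4 TPM in every library but GC taste control 3, which held 9.34 TPM. Among mural transcripts, smooth muscle actin Acta2 averaged 0.861 ± 1.23 TPM in BLA and 3.86 ± 5.36 TPM in GC, with 16.4 TPM in GC CTA 1 (log2 difference -1.07, limma adjusted p = 0.158). Vtn, a matrix protein made by pericytes, was under 2 TPM in every library but GC CTA 2, which held 11.9 TPM, and the pericyte receptor Pdgfrb was at most 2.51 TPM.

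The region differences of Ptprc, S100b, Aldoc, Mbp and Trem2 were also called within each training group alone and after both rescalings. They coincided with the higher Thy1 level and the smaller number of entries above 0 in BLA given above, whose part in them was not tested. Lower values in BLA were not particular to glial genes, since 7 of the 9 reference genes of projection neurons were also called lower in BLA (4 and 6 after the rescalings), with a median log2 difference of -0.59 (-0.37 and -0.54), while Thy1 was called higher, though not after quantile normalization.

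Further genes of the same cell types were counted from lists beside the 41. These counts stand beside 15.4% of all genes called lower in BLA and 4.24% called higher. Of 18 other astrocyte genes, all tested, 12 were called lower in BLA and 0 higher, with a median log2 difference of -1.39. After the rescalings 9 and 10 were called lower, beside 1462 and 1425 of the 15191 genes tested. Of the 18, 3 averaged under 1 TPM in BLA and 0 in GC, so that these 3 passed the filter through GC. The list included transcripts that were abundant in all libraries, such as Cst3, a secreted protease inhibitor, at 341 ± 116 TPM in BLA and 507 ± 108 TPM in GC, and the secreted matrix protein Sparcl1 at 126 ± 32.3 and 341 ± 30.8 TPM. Of 12 other oligodendrocyte genes tested, 2 were called lower (1 after either rescaling), and the most abundant were Qdpr (75.2 and 62.7 TPM) and Enpp2 (47.1 and 68.9 TPM). Of 4 other microglial genes tested none was called, and the median over 14 such genes was 0.453 TPM in BLA and 0.784 TPM in GC. Of 11 other endothelial genes tested, 3 were called lower and 1 higher in BLA, and of 3 mural and fibroblast genes 1 was called higher.

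No member was called for CTA training by limma in either region. In BLA, 17 members averaged 1 TPM or more and were tested, 0 were called by limma (0% of 14611 genes) and 0 had an unadjusted p under 0.05, compared with 3.89% of all genes. The smallest adjusted p was 0.999. Of the 17, 10 had a log2 difference (CTA minus taste control) below 0, compared with 47.9% of all genes, with a median of -0.29 beside 0.02 over all genes. None of the 17 had groups that did not overlap (2.38% of all genes). Among the 24 members under the filter, Pdgfra was the only one whose groups did not overlap, at 0.0100, 0.0400, 0 and 0.0300 TPM after CTA and 3.81, 0.0700, 0.0800 and 0.570 TPM in the taste control (exact permutation p = 0.0286, unadjusted). Of these 8 libraries, 7 held less than 1 TPM of it, and the groups were parted by 0.0400 against 0.0700 TPM. Groups of 4 that do not overlap always give this p. The share of all entries under the filter was not counted, so Pdgfra cannot be read as a result. For the abundant members the log2 differences were 0.22 for S100b (SE 0.29), -0.48 for Ptprc (SE 0.34) and -0.21 for Mbp (SE 0.48). The largest were 1.45 for Aif1 (SE 0.89) and 1.30 for Cldn11 (SE 0.99), with an unadjusted limma p of 0.128 and 0.211 (n = 4/group, adjusted p = 0.999). In data simulated from these libraries, limma found 51 of 100 genes that were shifted by 2 in log2 units and 18 of 100 that were shifted by 1. The shifted genes were drawn only from those whose mean log2(TPM + 1) matched 10 TPM or more. By mean TPM, 5 of the 41 members reached 10 TPM in BLA, but Mobp and Aif1 fell short by mean log2(TPM + 1). The rates were therefore not measured for lower members.

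In GC, 34 members were tested and again 0 were called (0% of 15278 genes, all adjusted p = 1.0). An unadjusted limma p under 0.05 was reached by 4 members, beside 3.75% of all genes. Of these Mbp, Mobp and Olig1 had lower values after CTA (1.90% of all genes in this direction) and Trem2 had higher values (1.85%). Mbp averaged 98.8 TPM after CTA and 155 TPM in the taste control (log2 difference -0.58, SE 0.25, limma p = 0.0344, exact permutation p = 0.114). Mobp averaged 19.7 and 37.2 TPM (-0.79, SE 0.35, limma p = 0.0400, exact permutation p = 0.114). Olig1 measured 3.19, 0.320, 0.190 and 0.750 TPM after CTA and 1.08, 9.08, 2.44 and 11.9 TPM in the taste control (-1.58, SE 0.64, limma p = 0.0281, exact permutation p = 0.114). Trem2 averaged 13.7 and 7.13 TPM (0.86, SE 0.35, limma p = 0.0314, exact permutation p = 0.0571). The groups overlapped for all 4. C1qa, at 0, 0.740, 0.0800 and 1.05 TPM after CTA and 1.53, 2.26, 1.06 and 1.41 TPM in the taste control, was the only member whose groups did not overlap, beside 2.21% of all genes (log2 difference -0.85, SE 0.45, limma p = 0.0848, exact permutation p = 0.0286, the smallest that 4 libraries against 4 allow). The number of such members rose from 1 to 4 without CTA 1, to 3 without CTA 2 or taste control 2, and to 2 without taste control 3 or taste control 4. With 4 libraries against 3, groups fail to overlap more easily (smallest exact permutation p = 0.0571). The share of all genes was not counted for these fits, so the rise cannot be read as a result about the members.

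By class, 6 of 7 oligodendrocyte genes tested in GC had a log2 difference below 0 (median -1.06), as did 7 of 11 microglial and leukocyte genes (median -0.36), 4 of 7 astrocyte genes (median -0.05) and both oligodendrocyte lineage factors tested (median -0.82). Of the precursor genes 1 of 3 was below 0 (median 0.29), and of the endothelial and mural genes 2 of 4 (median 0.35). Over all 34 members 22 were below 0, compared with 51.2% of all genes, with a median of -0.22 beside -0.01. The summed level of the 8 oligodendrocyte genes was 160.3, 99.4, 125 and 142 TPM after CTA and 172, 334, 114 and 314 TPM in the taste control, so that taste controls 2 and 4 stood above the other 6 libraries while taste controls 1 and 3 lay near the CTA group. In simulated data of GC, limma found 88 of 100 genes shifted by 2 in log2 units and 46 of 100 shifted by 1. These genes too were drawn from those whose mean log2(TPM + 1) matched 10 TPM or more. By mean TPM, 7 of the 41 members reached 10 TPM in GC, but Trem2 fell short by mean log2(TPM + 1).

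**Figure D4:**
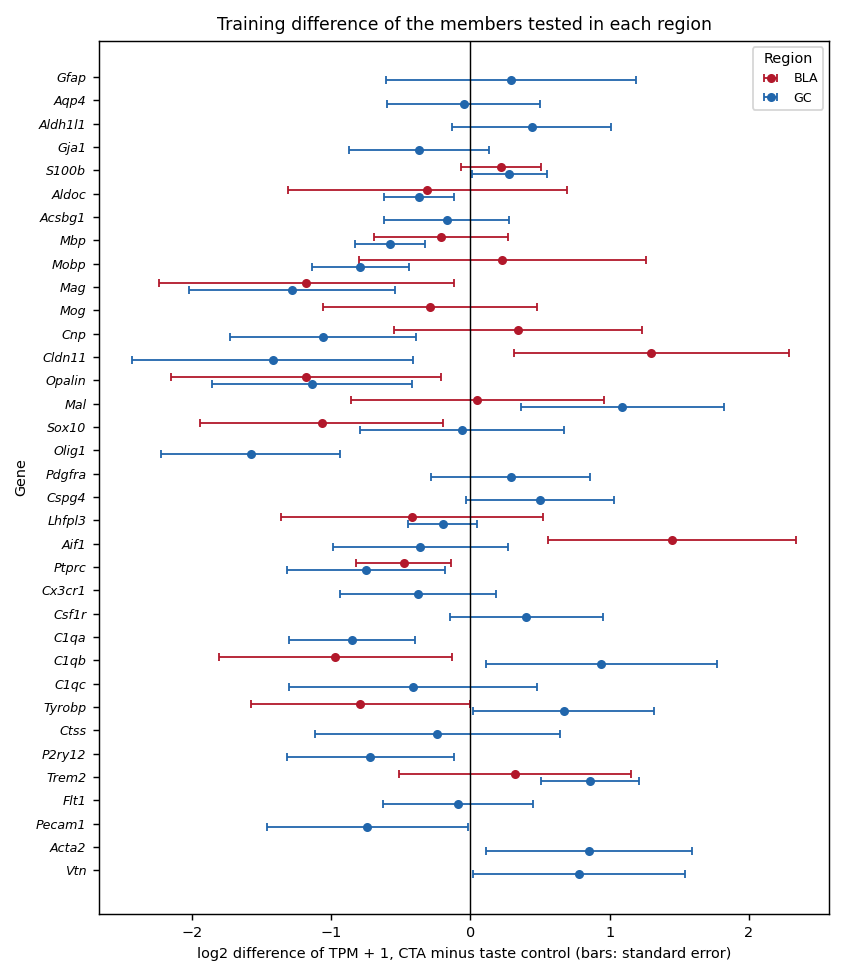
Log2 difference of TPM + 1 (CTA minus taste control, x axis) of each member tested (y axis) in BLA (red) and GC (blue), with standard errors from limma as bars. No member was called in either region, and in GC Mag, Cnp, Cldn11, Opalin, Mobp and Mbp lie below 0 while Mal (1.09) lies above.

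The training difference did not differ between regions for any member at the threshold. Of the 29 members in the region by training test 0 were called (0% of 15191 genes) and 0 had an unadjusted limma p under 0.05, compared with 3.96% of all genes. Cldn11 had the largest term (2.72, SE 1.56, limma adjusted p = 1.0), with 1.30 in BLA and -1.42 in GC. In simulated data this term was found for 44 of 100 genes shifted by 2 in log2 units and for 13 of 100 shifted by 1, all at about 10 TPM or more.

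In each region 1 library held the highest value of many members, and the share of all genes highest in that library was not counted. BLA taste control 1 held the highest value of 14 of the 40 members above 0 in BLA, including Aldoc, Mbp, Mobp, Sox10, Pdgfra, C1qc and Tyrobp, and GC taste control 2 held the highest value of 18 of 41 in GC, including Gfap, Aldoc, Mbp, Mobp, Opalin, C1qc, Ctss and Tmem119. In GC taste control 2 the summed level was 702 TPM against 262 to 487 TPM in the other 7 GC libraries, and in BLA taste control 1 it was 353 TPM against 191 to 301 TPM. The classes did not rise together in every library, since BLA taste control 3 had the lowest oligodendrocyte sum of all libraries (14.6 TPM) but a microglial and leukocyte sum of 92.1 TPM, of which Ptprc made up 74.7 TPM. BLA CTA 4 had 103 TPM of the latter class, of which Aif1 and Ptprc held 60.3 and 33.0 TPM. Without BLA taste control 1 and GC taste control 2, the region comparison called 9 members, and Gja1 was the call that was lost (log2 difference -0.94, limma adjusted p = 0.0938).

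**Figure D5:**
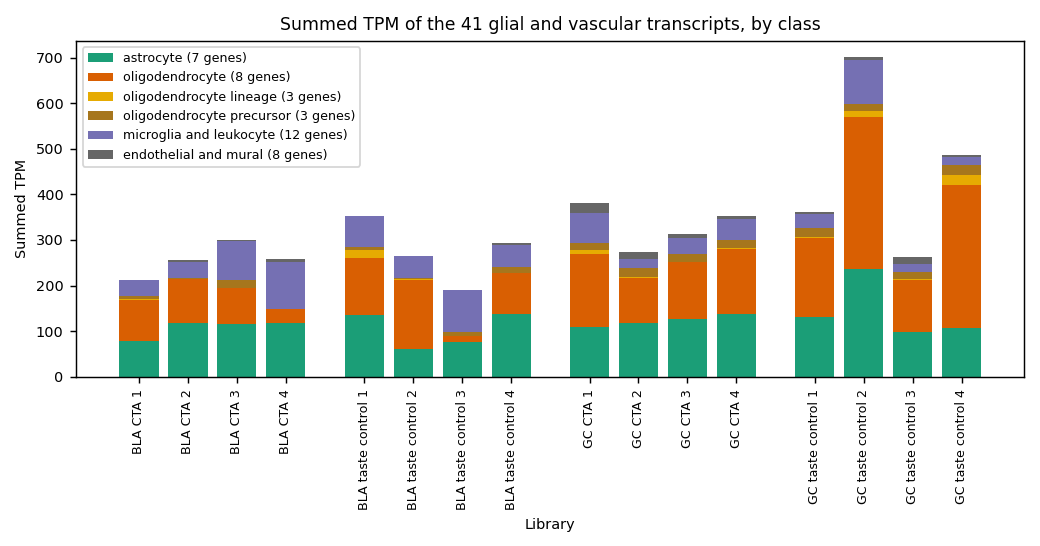
Summed TPM (y axis, from 0) of the 41 transcripts in each of the 16 libraries (x axis), stacked by class. Bars run from 191 to 353 TPM in BLA and from 262 to 702 TPM in GC, the oligodendrocyte part reaches 334 and 314 TPM in GC taste controls 2 and 4, and the endothelial and mural part is at most 22.3 TPM.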

How the data were processed

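RNA was measured in 16 libraries of manually sorted YFP+ neurons, 8 from BLA and 8 from GC, with 4 CTA and 4 taste control libraries in each. RNA was isolated with a PicoPure kit and amplified with a NuGEN Ovation kit. The authors trimmed the reads, aligned them with TopHat (version not given in the sources used here) to mm10 and converted unique reads to expression values with their own scripts, and they deposited TPM per library. Every library summed to 999999 to 1000001 TPM. TPM keeps no read counts, so the depth per library is unknown and no counting interval can be given. Columns of the deposited tables with the authors' group means, fold-changes and p-values were not used. Only unique reads were used, which can undercount genes with near-identical copies.

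Members were found by gene name, and no name was on more than 1 entry. The members, marker lists and naming rule were chosen with earlier results of these data known. Every member got a level. A test was printed for members that were called, whose groups did not overlap, or whose unadjusted limma p was under 0.05, and further differences are given as description. Of other genes, at most the 2 most abundant of a list (by the mean of both regions) and reference genes of projection neurons were named.

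Tests were run with limma 3.58.1 in R 4.3.3 on log2(TPM + 1), so fold-changes of low genes are understated, with a mean of at least 1 TPM over the libraries compared, a variance trend on the mean and Benjamini-Hochberg adjustment over all genes tested. Region was tested over 16 libraries with training as a covariate. Two-sided exact permutation tests of mean TPM used scipy 1.17.1 (70 arrangements of 4 against 4 and 12870 of 8 against 8). The fits were tested on simulated data, in which only genes whose mean log2(TPM + 1) matched 10 TPM or more were shifted. Gene positions are from GENCODE M21 (GRCm38) and promoter sequences from RefSeq (GRCm38.p6). Alternatives were quantile normalization, median-ratio rescaling, a pseudocount of 0.1 or 5 TPM, all genes or those averaging 5 TPM, a fit without the trend, the replicate number as a block, each training group alone and each library left out. Leaving out BLA taste control 1 and GC taste control 2 together was chosen after seeing the data. Replicate columns were compared, and none were identical.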

Additional observations from a re-analysis of the deposited data

Results flagged for a closer look

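Of 62 sets of 4 libraries with a mean of at least 5 TPM (single members and class sums), 6 held a library far from the other 3 by Dixon's ratio. The cutoff is passed by about 1 in 20 sets of independent, normally distributed values. TPM values are skewed and the sums contain the single members, so 6 of 62 cannot be weighed against that rate. Aldoc was at 33.8 TPM in BLA taste control 1, and the next library of that group was at 4.64 TPM. Opalin was at 25.2 TPM in BLA taste control 2 and at 0 in the other 3 libraries of the group. Lhfpl3 was at 19.9 TPM in GC CTA 2, with the others between 12.7 and 13.7 TPM. Trem2 was at 21.8 TPM in GC CTA 3, with the others between 9.74 and 11.8 TPM. The summed astrocyte genes were at 77.4 TPM in BLA CTA 1, below the 115 to 118 TPM of the other CTA libraries. The summed microglial and leukocyte genes were at 95.6 TPM in GC taste control 2, above the 16 to 29.0 TPM of the other taste controls.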

How the results depend on the processing

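No member turned direction under any alternative among the 19 member results that were tested by name, and of their alternative fits 412 kept their side of the threshold, 26 lost a call and 6 gained a call. The 412 include members without a call, such as the GC training results, whose adjusted p was never below 0.968. Because the 19 were picked by their result in the main fit, a kept direction says little. Ptprc, S100b, Aldoc, Mbp and Trem2 were called between regions in all 27 alternatives. The number of members called between regions, 10, was 6 after quantile normalization and 5 in the taste control libraries alone, and 8 to 12 when a library was left out. With a mean of at least 5 TPM it was also 6, because Aqp4, Gja1, Acsbg1 and Tyrobp fell below that filter and were not tested. The called members that were tested there stayed called. The number of all genes called, 2986, fell to 1203 in the taste control and 994 in the CTA libraries alone, with fewer samples in each, and was 2552 to 2982 when a library was left out. In GC the number of genes called for training was 0 to 1 when a library was left out (1 without CTA 2, with 0 members). The number of members with non-overlapping groups was 1 to 4, but smaller groups overlap less often and the share of all genes was not counted there. The sum over repeated entries was not run because no member had any. With the replicate number as a block, 9 members were called between regions (Gja1 was lost, adjusted p = 0.0821), 2578 genes were called, and 0 members were called for training. Deviations of same-numbered libraries had r from -0.105 to 0.132 over all pairings, so the numbers were not taken to pair the libraries. Between CTA and taste control in GC, r was above 0 for every number (0.105, 0.054, 0.132 and 0.042). What these values reflect was not tested. TPM without counts limits what can be said of values near 0, and 12 members were too low to be tested between regions.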

Other observations

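Endothelial and mural genes beyond the 41 were also followed by training in GC. All 9 other endothelial genes tested had a log2 difference (CTA minus taste control) above 0, with a median of 0.32, and so did the 3 other mural and fibroblast genes tested, with a median of 0.86, but 0 of them were called by limma. Over all genes 51.2% were below 0. Of the 4 endothelial and mural members tested in GC, 2 were above 0 and 2 below (Pecam1 at -0.74 and Flt1 at -0.09), with a median of 0.35. In BLA the same lists had medians of 0.07 (6 of 11 above 0) and -0.73 (1 of 3 above 0), also with 0 calls. A shared direction in GC was not particular to the vascular lists. There 14 of 18 other astrocyte genes (median -0.21) and 10 of 12 other oligodendrocyte genes (median -0.14) were below 0, with 0 calls. Transcripts of red blood cells and ependyma were low, with a median over 7 genes of 0.427 TPM in BLA and 0.542 TPM in GC.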
